A study of Mus musculus with 9 samples.

Results

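The 44 genes described here make and break down the sphingolipids of the nerve: ceramide, the myelin galactolipids galactocerebroside and sulfatide, sphingomyelin, the gangliosides and sphingosine 1-phosphate. They were taken as a list of symbols. All 44 are among the 36121 genes of the deposited table, and 43 reach a mean of 1 normalized TPM over the 9 libraries, the minimum for testing, as do 15014 genes in all. Sptlc3, a subunit of serine palmitoyltransferase, falls below it: it is listed at 0 in all 3 cKO libraries, in all 3 cHet libraries and in 1 control library, and at 0.0228 and 0.0633 in the other control libraries.

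The libraries come from whole sciatic nerves of C57BL6 mice aged 21 days, 3 mice per genotype, made to follow gene expression where Tardbp, the gene for the RNA-binding protein TDP-43, is deleted in Schwann cells. The cKO mice are Cnp-Cre; Tardbp-fl/fl and the cHet mice are Cnp-Cre; Tardbp-fl/+. The control mice are Tardbp-fl/fl and carry no Cre. Cnp-Cre is Cre placed in the Cnp gene, which is active in Schwann cells and oligodendrocytes, so that the other cells of the nerve keep TDP-43, and the Cre insertion and the loss of Tardbp cannot be told apart in a comparison with control. Each group has 2 female mice and 1 male mouse, and the groups follow the sample titles, because the genotype field of cKO mice 1 and 2 reads Cnp-Cre; Tardbp-fl/+ and that of cHet mouse 1 reads Tardbp-fl/fl.

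Tardbp went with the titles of the cKO nerves, which lay below all others. The cHet and control nerves overlapped, so that Tardbp does not bear on the differing label of cHet mouse 1. It was at 103, 94.2 and 104 normalized TPM in the cKO nerves, at 177, 179 and 186 in the cHet nerves and at 185, 194 and 217 in the control nerves (cKO against control, log2 fold change -0.98, 95% CI -1.18 to -0.79, limma adjusted p = 0.00219). Cnp was at 554, 799 and 498 in cKO, 641, 849 and 803 in cHet and 1168, 1267 and 1700 in control nerves (cKO against control, log2 fold change -1.17, adjusted p = 0.0402, a call lost under 16 of 23 alternatives). All cHet nerves, mouse 1 among them, lay below every control nerve for Cnp, though the difference did not pass the test. The 12 markers of myelinating Schwann cells were detected in every library, and 0 of them passed the test in any comparison. Their sum was 77280 to 107400 in cKO, 95100 to 134200 in cHet and 102100 to 130800 in control nerves. Markers of tissue other than Schwann cells set single libraries apart. The sum of 12 neuron markers reached 1719 in cKO mouse 3, 1552 in cHet mouse 1 and 3964 in control mouse 2, against 175 to 390 in the other libraries. Skeletal muscle markers reached 688 in cKO mouse 2, 9903 in cKO mouse 3 and 18890 in control mouse 1, against 28.1 to 333 in the other libraries. Adipocyte markers reached 2267 and 3160 in control mice 1 and 3. Red blood cell markers reached 7531 in cKO mouse 3 and 6228 in cHet mouse 1, against 1191 to 3749 in the other libraries. The 6 oligodendrocyte markers summed to 128 to 152 in cKO, 163 to 199 in cHet and 162 to 258 in control nerves. The highest sum was in control mouse 3. Most of each sum came from Aspa and Mobp, and the markers did not share a direction. Aspa was lower in all cKO nerves than in cHet nerves but overlapped control nerves. Hapln2 was higher in cKO nerves, at 4.167 to 6.402 beside 0.8215 to 1.128 in cHet and 0.8813 to 3.64 in control nerves. Opalin was higher in all cKO nerves than in cHet nerves but overlapped control nerves. Mobp, Mog and Ermn overlapped in both comparisons. Macrophage markers summed to 458 to 629 in cKO, 405 to 542 in cHet and 366 to 668 in control nerves.

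Sphingolipids start with serine palmitoyltransferase, which joins serine and a fatty acyl chain, and pass through ceramide, whose second acyl chain is set by the ceramide synthases. In myelinating glia a large part of ceramide receives galactose and becomes galactocerebroside, and sulfation of that lipid gives sulfatide. Both are enriched in myelin and are needed for the paranodal junction between the myelin loops and the axon. Glucose in place of galactose opens the way to the gangliosides, a phosphocholine head group gives sphingomyelin, and lysosomal enzymes with their activator proteins take the lipids apart again.

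The members summed to 3305 to 4265 normalized TPM per library, and Ugt8a, Psap, Cers2, Fa2h and Sptlc2 together made up 62.7% to 70.2% of that sum.

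**Figure D1:**
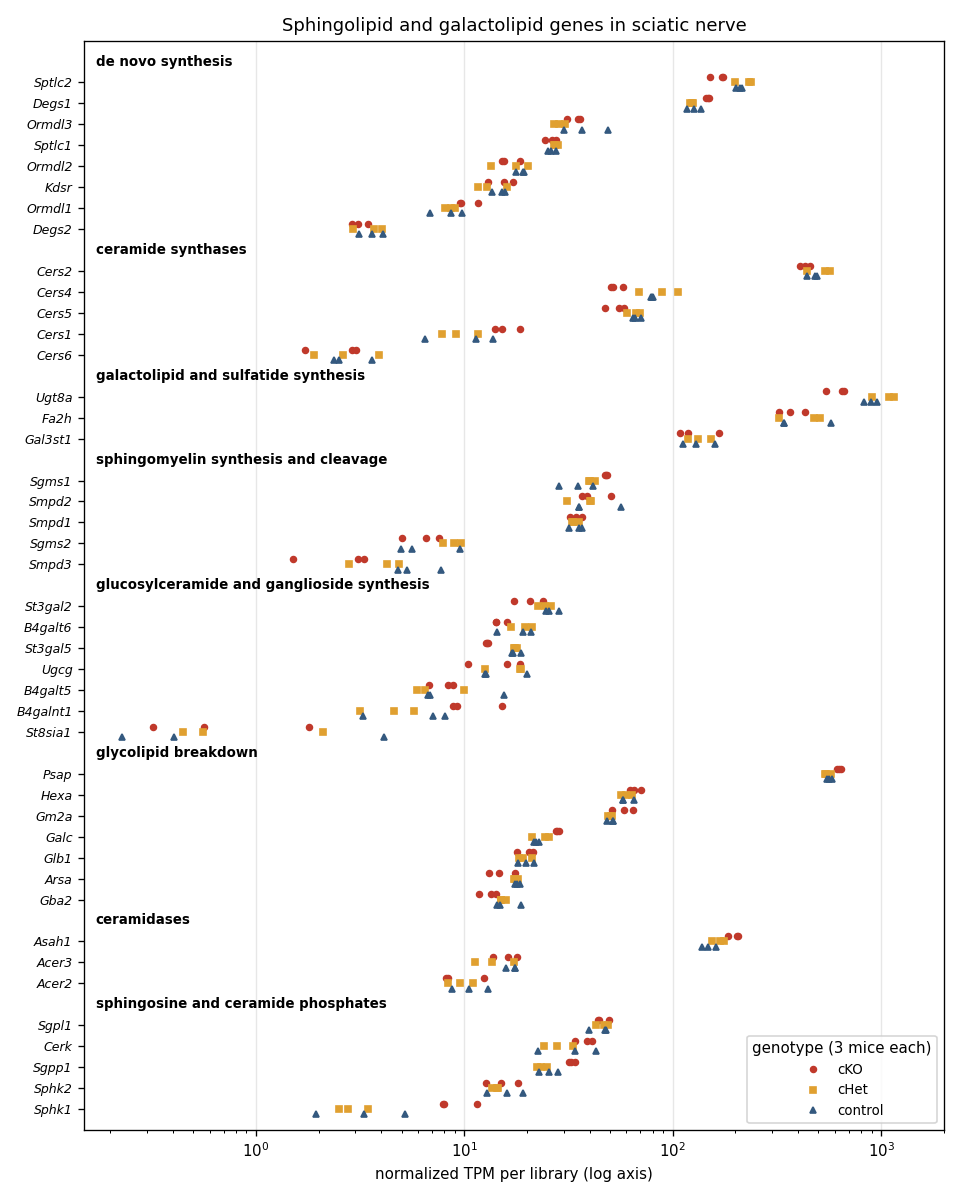
Normalized TPM (log axis) of the 43 tested genes in each library, grouped by step of the pathway, with circles for cKO, squares for cHet and triangles for control nerves (3 mice each). Mean levels run from 1.17 (St8sia1) to 855 (Ugt8a), and the 3 circles of St3gal5, Ugt8a and Cers4 lie left of all squares and triangles of the same gene.

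Between cKO and control nerves 1 of the 43 members passed the test, St3gal5, which was lower. That is 2.33% of the members, where 235 of all 15014 genes, or 1.57%, were called. Between cKO and cHet nerves 2 members passed, Ugt8a and St3gal5, both lower, which is 4.65% beside 1.71% of all genes (256 genes). Between cHet and control nerves 0 members passed and 0% of all genes were called by limma. At an unadjusted limma p under 0.05, cKO against control held 8 of the 43 members higher and 7 lower, and 1935 of all 15014 genes. For cKO against cHet 8 members were higher and 6 lower, and 2190 genes in all. For cHet against control 0 members were higher and 1 lower, and 408 genes in all. The median log2 fold change over the members was -0.03 for cKO against control and -0.01 for cKO against cHet, beside -0.02 and 0.02 over all genes tested. For cKO against control 37 members differed by less than 0.5 on the log2 scale and 6 by more.

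More members separated the groups than passed the test. In 17 of 43 members (39.5%) all 3 cKO nerves lay on one side of all 3 control nerves, 9 higher and 8 lower, where 17.4% of all genes did so. In 20 members (46.5%) the cKO nerves lay on one side of all 3 cHet nerves, 12 higher and 8 lower, where 24.3% of all genes did so. The 40 tested pathway genes outside the list, described further below, did not share this. Of them 6 (15.0%) lay apart between cKO and control nerves and 7 (17.5%) between cKO and cHet nerves, below the shares of all genes. No test was made of these shares. The cKO nerves stand in both comparisons, so that the counts are not independent of each other. Between cHet and control nerves the libraries overlapped for each of the 43 members, where 7.1% of all genes did not overlap.

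**Figure D2:**
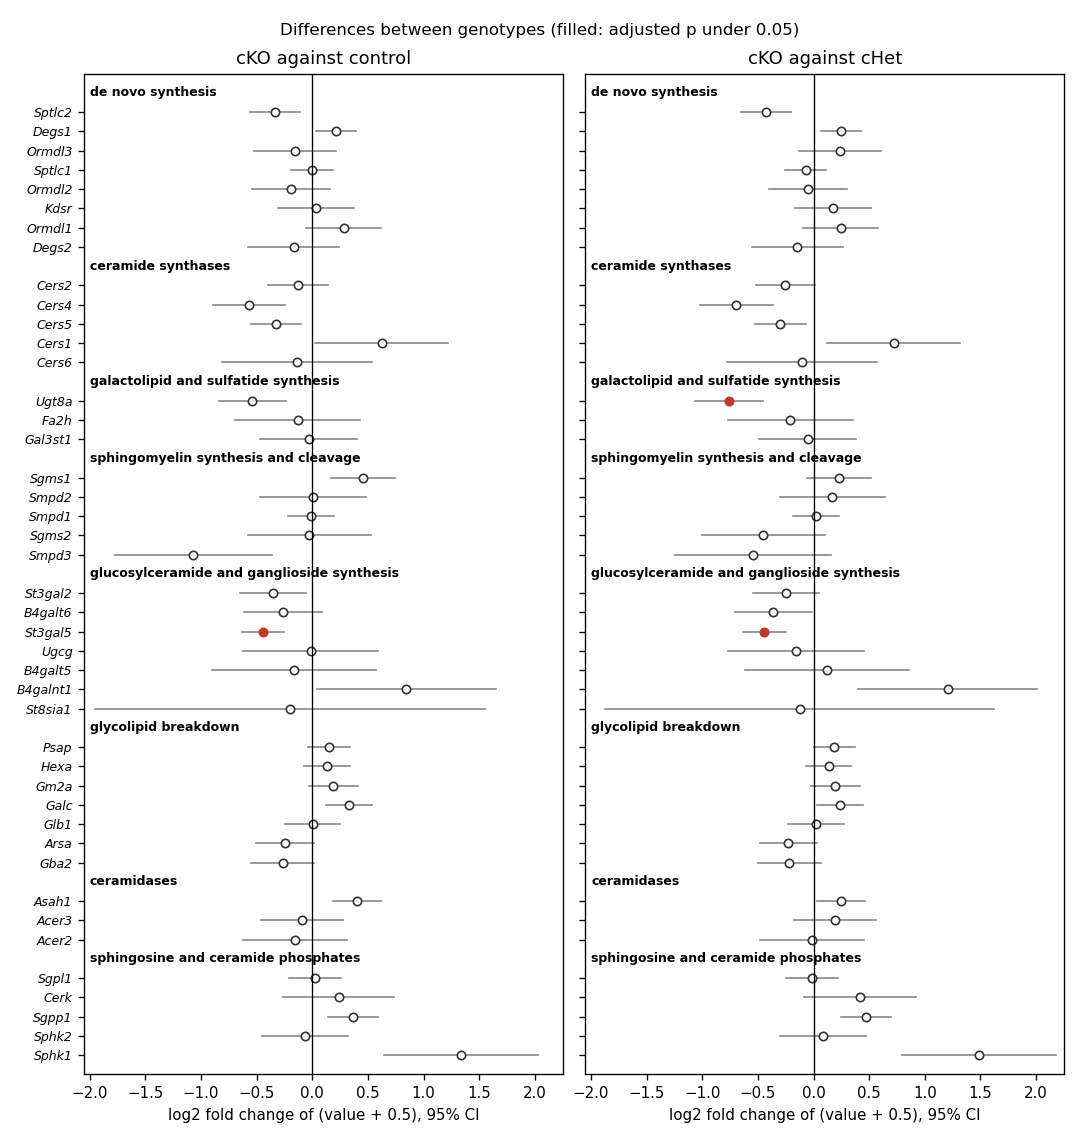
Log2 fold change of (value + 0.5) with its 95% confidence interval for the 43 genes by step of the pathway, cKO against control on the left and cKO against cHet on the right (limma, 3 mice per group). Filled points passed an adjusted p of 0.05: St3gal5 in both panels and Ugt8a against cHet.

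Ugt8a, the ceramide galactosyltransferase that makes galactocerebroside, had the highest mean of the list over the 9 libraries and was lower in cKO nerves, where its mean of 618 normalized TPM stood beside 629 for Psap. It was at 649, 661 and 545 normalized TPM in cKO nerves, at 906, 1156 and 1086 in cHet nerves and at 961, 898 and 833 in control nerves. The highest cKO value lies below the lowest value of either other group. Against cHet the log2 fold change was -0.76 (95% CI -1.06 to -0.46, limma adjusted p = 0.0303). Against control it was -0.54 (-0.84 to -0.24), which did not pass (adjusted p = 0.103). The call against cHet was lost under 13 of 23 alternatives, the omission of cKO mouse 1, 2 or 3, cHet mouse 2 or 3 or control mouse 2 among them, with adjusted p from 0.0388 to 0.138 over the omissions of single nerves. Between cHet and control the difference was 0.22, and the groups overlapped. Ugt8a lies on chromosome 3 from 125865271 to 125938619 on the minus strand (GRCm38).

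The other enzymes of galactolipid synthesis did not separate the groups. Fa2h, which puts the hydroxyl group on the acyl chain of myelin galactolipids, was at 366, 430 and 325 in cKO, 323, 479 and 509 in cHet and 342, 341 and 573 in control nerves. Control mouse 3, the nerve high in adipocyte and oligodendrocyte markers, was far above the other control nerves, and the log2 fold change of cKO against control was -0.13 with it (adjusted p = 0.896) and 0.12 without it, which did not pass either. Gal3st1, the sulfotransferase that turns galactocerebroside into sulfatide, was at 119, 168 and 109 in cKO, 119, 153 and 133 in cHet and 112, 130 and 159 in control nerves, with the 3 groups overlapping.

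Galc, the lysosomal enzyme that removes the galactose again and whose loss causes Krabbe disease, lay on the other side. It was at 27.7, 28.3 and 27.6 normalized TPM in cKO, 21.2, 25.6 and 24.4 in cHet and 22.8, 22.2 and 21.5 in control nerves, so that the cKO nerves were above the rest. Against control the log2 fold change was 0.33 (95% CI 0.12 to 0.53) and did not pass (adjusted p = 0.154), nor did that against cHet, 0.23 (adjusted p = 0.283). Ugt8a was 23.4, 23.3 and 19.7 times as abundant as Galc in cKO nerves, 42.7, 45.3 and 44.6 times in cHet nerves and 42.2, 40.4 and 38.7 times in control nerves. This ratio was formed after the values were seen and has no test. Its groups do not overlap between cKO and either other genotype. The cHet and control nerves do not overlap either, but lie close together, with the lowest cHet nerve at 42.7 and the highest control nerve at 42.2. Lack of overlap in this ratio is thus not particular to the cKO nerves.

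The summed markers of myelinating Schwann cells, given above, overlap between the genotypes. In bulk nerve, fewer cells of a type and less RNA per cell cannot be told apart, and the part of cell content in the lower Ugt8a was not tested.

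**Figure D3:**
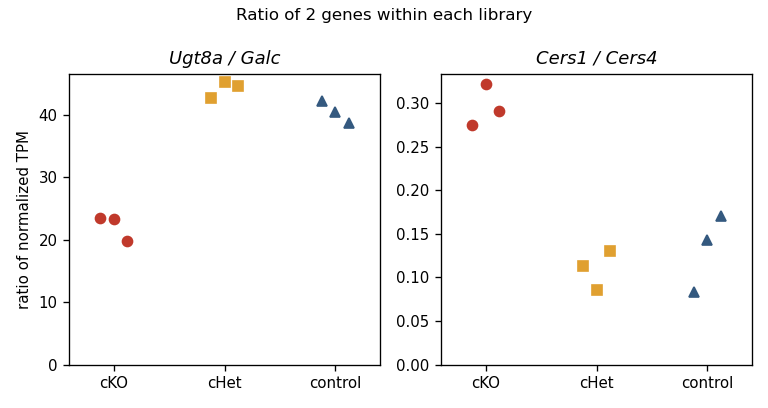
Ratio of the normalized TPM of 2 genes within each library, Ugt8a over Galc on the left and Cers1 over Cers4 on the right, 1 point per mouse in cKO, cHet and control nerves. The cKO nerves lie at 19.7 to 23.4 for Ugt8a over Galc, below cHet and control nerves, and at 0.275 to 0.322 for Cers1 over Cers4, above them. Both separations follow from the levels of the single genes.

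St3gal5 was the one member that passed the test against both other genotypes. It encodes GM3 synthase, which adds the first sialic acid on the way to the gangliosides, and lies on chromosome 6 from 72097592 to 72154571 on the plus strand (GRCm38). It was at 12.9, 12.7 and 12.9 normalized TPM in cKO, 17.3, 17.5 and 17.9 in cHet and 18.7, 17.0 and 17.2 in control nerves. The values within each group are close together and the cKO nerves stand below all others. Its log2 fold change was -0.44 against control (95% CI -0.64 to -0.25, limma adjusted p = 0.0425) and -0.44 against cHet (-0.63 to -0.25, adjusted p = 0.0422). Both calls stand near the threshold. The call against control was lost under 18 of 23 alternatives, among them the omission of any of the 9 libraries (adjusted p 0.0739 to 0.152), while the log2 fold change stayed between -0.51 and -0.39. Against cHet 16 of the 23 alternatives lost the call.

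Promoter sequence is shown for Ugt8a and St3gal5, the members that passed the test, and for Elovl6, the pathway gene outside the list that did so. Each sequence holds the 250 bases before the RefSeq transcription start (GRCm38.p6), read along the gene, and capitals mark the GC box GGGCGG or its reverse complement CCGCCC, to which transcription factors of the Sp family can bind.
Ugt8a, chr3:125938653-125938902, minus strand: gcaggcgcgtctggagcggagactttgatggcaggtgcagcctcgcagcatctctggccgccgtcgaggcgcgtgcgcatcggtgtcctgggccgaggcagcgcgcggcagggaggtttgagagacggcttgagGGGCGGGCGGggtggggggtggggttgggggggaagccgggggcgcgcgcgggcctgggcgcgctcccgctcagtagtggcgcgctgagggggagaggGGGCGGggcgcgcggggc
St3gal5, chr6:72097358-72097607, plus strand: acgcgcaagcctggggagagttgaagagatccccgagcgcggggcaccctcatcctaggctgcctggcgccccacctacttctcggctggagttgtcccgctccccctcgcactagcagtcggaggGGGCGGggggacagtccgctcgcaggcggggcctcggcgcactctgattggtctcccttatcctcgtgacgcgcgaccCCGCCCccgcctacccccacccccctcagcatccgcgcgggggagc
Elovl6, chr3:129532136-129532385, plus strand: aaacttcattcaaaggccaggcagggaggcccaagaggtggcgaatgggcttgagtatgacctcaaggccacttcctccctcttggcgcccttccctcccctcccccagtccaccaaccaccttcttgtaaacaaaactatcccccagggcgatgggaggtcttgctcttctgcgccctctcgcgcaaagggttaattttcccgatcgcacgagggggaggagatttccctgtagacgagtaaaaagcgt
Ugt8a holds 3 GC boxes, a pair of them overlapping, St3gal5 holds 2 and Elovl6 holds 0. Of the 44 members 38 have a promoter in the RefSeq table, with 56 windows of 250 bases. On either strand GGGCGG stands in 31 of these windows (55.4%), from 28 members, and in 32.7% of all 32851 windows. A gene with several starts counts more than once, and the windows of all genes were not limited to genes tested here. The shares were not tested. CACGTG, an E-box, stands in 9 windows (16.1%) beside 6.0% of all, and ACAAAG, a sequence that Sox proteins can bind, in 6 (10.7%) beside 16.5%. Neither stands in the 3 promoters printed here.

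**Figure D4:**
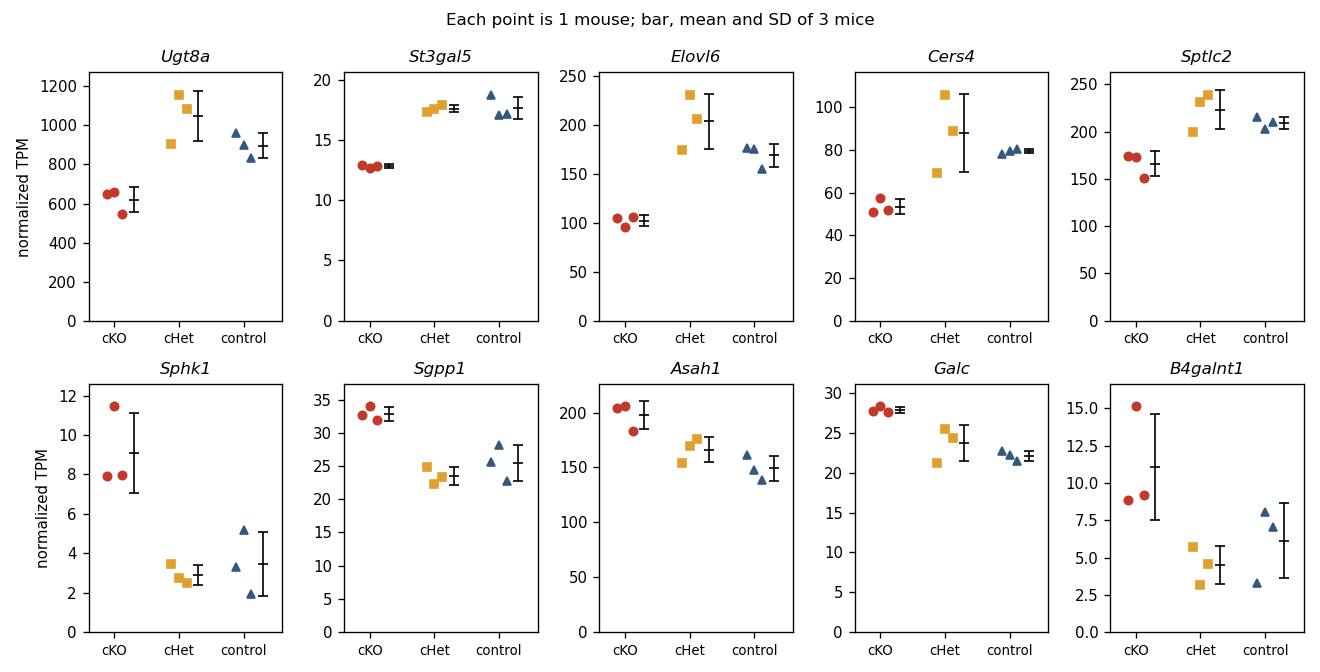
Normalized TPM of 10 genes in each nerve, 3 mice per genotype with the mean and SD beside them, cKO left, then cHet and control. Ugt8a, St3gal5, Elovl6, Cers4 and Sptlc2 (top) are below both other genotypes in all cKO nerves, and Sphk1, Sgpp1, Asah1, Galc and B4galnt1 (bottom) are above them.

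The first step of synthesis rests on Sptlc1 and Sptlc2, which pair in serine palmitoyltransferase. Sptlc2 was at 174, 173 and 151 normalized TPM in cKO, 199.6, 232 and 239 in cHet and 215, 202 and 210.1 in control nerves. The cKO nerves were below all others, but the log2 fold changes of -0.33 against control (95% CI -0.56 to -0.11, adjusted p = 0.173) and -0.42 against cHet (adjusted p = 0.0809) did not pass. Sptlc1 was at 27.4, 26.5 and 24.5 in cKO, 27.1, 28.1 and 27.1 in cHet and 27.5, 25.1 and 25.9 in control nerves, and the groups overlap. Degs1, the desaturase that completes ceramide, was at 147, 149 and 144 in cKO, 121, 126 and 124 in cHet and 126, 137 and 118 in control nerves. All cKO nerves were above the rest, and the log2 fold change of 0.21 against control did not pass (adjusted p = 0.291). Kdsr, the reductase of the second step, and Degs2, which can also hydroxylate, had means of 14.5 and 3.43 over the 9 libraries and overlapping groups.

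The Ormdl proteins hold serine palmitoyltransferase in check when ceramide is plentiful. Ormdl3 made up 51.2% to 66.5% of their sum. It was at 31.0, 35.8 and 35.2 in cKO, 28.6, 27.0 and 30.5 in cHet and 36.6, 30.2 and 48.8 in control nerves, with the high value in control mouse 3. Against control its log2 fold change was -0.15 with all nerves, 0.03 without control mouse 3 and 0.16 without control mice 1 and 3, both high in adipocyte markers, which leaves 1 control nerve, and did not pass in any of these. Ormdl1 was at 9.63, 11.6 and 9.56 in cKO, 9.02, 8.04 and 8.63 in cHet and 9.76, 8.62 and 6.83 in control nerves. Ormdl2 was at 15.1, 18.5 and 15.5 in cKO, 13.5, 17.7 and 20.3 in cHet and 19.4, 19.0 and 17.8 in control nerves. Neither passed the test.

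Of the 5 ceramide synthases tested, 0 passed. Cers2, which attaches the very long acyl chains of myelin lipids, made up 73.5% to 77.9% of their summed level in every library. It was at 433, 454 and 408 in cKO, 440.1, 571 and 541 in cHet and 479.8, 442 and 495 in control nerves, with overlapping groups and a log2 fold change of -0.13 against control (adjusted p = 0.731). Cers4, which uses long and very long chains, was at 50.9, 57.7 and 51.9 in cKO, 69.1, 106 and 89.0 in cHet and 78.4, 79.4 and 80.3 in control nerves. All cKO nerves were below the rest. The log2 fold change of Cers4 was -0.57 against control (95% CI -0.89 to -0.24, adjusted p = 0.113) and -0.69 against cHet (adjusted p = 0.0557), and it passed against cHet under 4 of the 23 alternatives. Cers5, which makes ceramide with palmitic acid, was at 47.5 to 58.1 in cKO, 60.5 to 70.0 in cHet and 64.7 to 70.6 in control nerves and did not pass either.

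Cers1, the synthase for stearic acid known mainly from neurons, went the other way. It was at 14.0, 18.6 and 15.1 in cKO, 7.83, 9.09 and 11.6 in cHet and 6.501, 11.4 and 13.7 in control nerves. Its log2 fold change was 0.62 against control (95% CI 0.02 to 1.22, adjusted p = 0.367) and 0.72 against cHet (adjusted p = 0.253). Without control mouse 1 the difference from control was 0.33, and without the nerves high in skeletal muscle markers, which leaves 1 cKO nerve, it was 0.16. Cers1 was 0.275, 0.322 and 0.291 times as abundant as Cers4 in cKO nerves, 0.113, 0.0859 and 0.130 times in cHet nerves and 0.0830, 0.143 and 0.171 times in control nerves, a ratio formed after the values were seen. Its separation of the cKO nerves follows from the higher Cers1 and lower Cers4 and adds no evidence. The Cers1 gene overlaps Gdf1 on the same strand and Upf1 on the opposite strand, whose means were 1.61 and 20.3 beside 11.97 for Cers1, and how their reads were divided is not given in the sources used here. Cers6 had a mean of 2.72 and overlapping groups.

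Sphingomyelin is made by Sgms1 and Sgms2 and cut by the sphingomyelinases. Sgms1, the synthase of the Golgi, was at 47.2, 47.6 and 48.4 in cKO, 40.2, 42.3 and 39.7 in cHet and 41.5, 35.3 and 28.6 in control nerves. The cKO nerves were above all others, with a log2 fold change of 0.45 against control that did not pass (95% CI 0.17 to 0.74, adjusted p = 0.152). Smpd3, a neutral sphingomyelinase, was at 3.07, 1.51 and 3.30 in cKO, 4.85, 2.81 and 4.28 in cHet and 7.75, 5.29 and 4.78 in control nerves. It was lower than in every control nerve but overlapped cHet, and neither the log2 fold change of -1.07 against control (-1.77 to -0.37, adjusted p = 0.165) nor that of -0.55 against cHet (adjusted p = 0.471) passed. The first was -0.63 with the 1 cKO nerve not high in skeletal muscle markers. Smpd3 overlaps Prmt7 on the opposite strand, which had a mean of 13.2 beside 4.18 for Smpd3, and whether the counting used strand is not given in the sources used here. Smpd1, the acid sphingomyelinase, was at 34.4, 36.8 and 32.1 in cKO, 35.4, 33.3 and 32.7 in cHet and 36.7, 35.4 and 31.9 in control nerves. Sgms2, the other sphingomyelin synthase, was at 5.03 to 7.55 in cKO, 7.92 to 9.65 in cHet and 4.94 to 9.52 in control nerves. Smpd2, a second neutral sphingomyelinase, had its highest value, 56.2, in control mouse 3.

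Glucosylceramide synthase, Ugcg, was at 15.9, 10.4 and 18.6 in cKO, 18.4, 18.8 and 12.5 in cHet and 12.7, 20.1 and 12.5 in control nerves, with no separation of the groups. Downstream of St3gal5, B4galnt1, which extends GM3 to GM2, was at 8.83, 15.1 and 9.21 in cKO, 5.72, 3.14 and 4.59 in cHet and 3.28, 8.06 and 7.04 in control nerves. All cKO nerves were above the rest, and the log2 fold changes of 0.85 against control (95% CI 0.04 to 1.65, adjusted p = 0.36) and 1.21 against cHet (adjusted p = 0.159) did not pass. The first was 0.48 without control mouse 1 and 0.22 with the 1 cKO nerve not high in skeletal muscle markers. B4galnt1 overlaps Slc26a10 on the opposite strand, with a mean of 1.27. St3gal2, a sialyltransferase of later steps, was at 17.2 to 23.9 in cKO, 22.7 to 26.0 in cHet and 24.7 to 28.6 in control nerves. B4galt6, one of the lactosylceramide synthases, was at 14.1 to 16.0 in cKO, 16.7 to 21.2 in cHet and 14.4 to 20.8 in control nerves. Neither passed.

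St8sia1, the GD3 synthase, was high in the nerves with many neuron marker transcripts, 1 of each genotype. It was at 0.566, 0.320 and 1.79 in cKO, 2.09, 0.448 and 0.555 in cHet and 0.403, 4.13 and 0.228 in control nerves. The 3 high values belong to the 3 nerves whose neuron markers were high. B4galt5, the other lactosylceramide synthase, had its highest value, 15.4, in control mouse 2, the nerve with the most neuron marker transcripts, against 5.95 to 9.99 in the other nerves. Outside the list, St8sia3, a sialyltransferase of nervous tissue, and Sgpp2, a phosphatase of sphingosine 1-phosphate, were at 5.67 and 6.34 in cKO mouse 3, 5.15 and 5.50 in cHet mouse 1 and 9.998 and 13.3 in control mouse 2, above all other nerves. The part of neuron transcripts in these values was not tested. These levels are descriptions over 9 nerves.

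**Figure D5:**
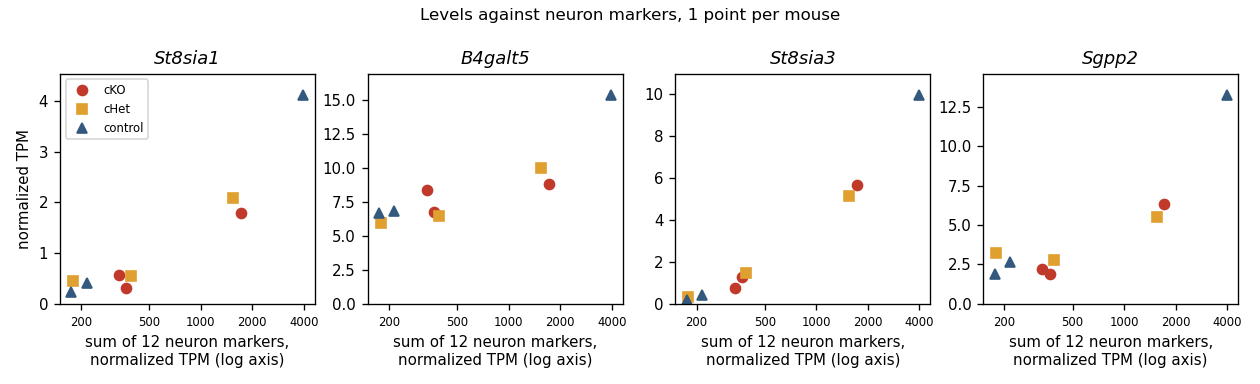
Normalized TPM of St8sia1, B4galt5, St8sia3 and Sgpp2 in each nerve against the summed normalized TPM of 12 neuron markers (log axis), 1 point per mouse, circles for cKO, squares for cHet and triangles for control. The rightmost point, control mouse 2 at 3964, is the highest in each panel, and the cKO and cHet points at 1719 and 1552 lie above the remaining nerves.

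Of the 7 glycolipid breakdown genes, 0 passed the test. Psap, the precursor of the saposins that present glycolipids to their enzymes, was at 629, 614 and 643 normalized TPM in cKO, 537, 546 and 573 in cHet and 564, 584 and 549.9 in control nerves. All cKO nerves were above the rest by a small margin (log2 fold change against control 0.15, 95% CI -0.04 to 0.34, adjusted p = 0.5). Arsa, the sulfatase that cleaves sulfatide and is lost in metachromatic leukodystrophy, was at 17.6, 13.1 and 14.7 in cKO, 17.6, 17.3 and 18.2 in cHet and 17.4, 17.9 and 18.5 in control nerves. A single cKO nerve reached the range of the other groups, and the log2 fold change of -0.25 against control did not pass (adjusted p = 0.418). Gba2, a glucosylceramidase outside the lysosome, was at 11.8 to 14.1 in cKO, 14.9 to 15.9 in cHet and 14.4 to 18.6 in control nerves. Hexa, a subunit of the enzyme that breaks down GM2, Gm2a, its activator, and Glb1, the lysosomal galactosidase, had means of 62.0, 52.9 and 19.8, with overlapping groups against control.

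Ceramide is opened to sphingosine by the ceramidases. Asah1, the acid ceramidase, had the highest level of them, at 183 to 206 in cKO, 154 to 176 in cHet and 139 to 162 in control nerves, with all cKO nerves above the rest, and did not pass (adjusted p = 0.0882 against control and 0.272 against cHet). Acer2 and Acer3, alkaline ceramidases, had means of 10.02 and 15.6 and overlapping groups.

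Sphk1, a kinase that makes sphingosine 1-phosphate, had the largest fold difference of the list. It was at 7.90, 11.5 and 7.96 normalized TPM in cKO, 3.47, 2.75 and 2.50 in cHet and 3.30, 5.17 and 1.95 in control nerves. The lowest cKO nerve is above the highest nerve of both other genotypes. The log2 fold change on the scale of value + 0.5 was 1.34 against control (95% CI 0.64 to 2.03, limma adjusted p = 0.0826) and 1.49 against cHet (adjusted p = 0.0546), so that neither passed. Against control mouse 2 alone, without the control nerves high in adipocyte markers, the difference was 0.74. Sphk1 passed against control under 2 of the 23 alternatives and against cHet under 6, and levels this low carry a counting error that the table does not show. Sgpp1, a phosphatase that returns sphingosine 1-phosphate to sphingosine, was at 31.9 to 34.0 in cKO, 22.4 to 24.9 in cHet and 22.7 to 28.1 in control nerves, also above both (adjusted p = 0.137 against control and 0.0563 against cHet). Sphk2, the second kinase, and Sgpl1, the lyase that ends the pathway, had means of 15.1 and 45.7 and overlapping groups. Cerk, which phosphorylates ceramide, was at 34.1 to 40.8 in cKO, 24.2 to 33.3 in cHet and 22.6 to 42.8 in control nerves.

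Of 47 further genes of the pathway, chain elongation, transport, ganglioside enzymes and receptors, 40 were tested. For cKO against control 0 were higher and 1 lower, which is 2.5% beside 1.57% of all genes. For cKO against cHet 0 were higher and 1 lower, 2.5% beside 1.71%, and for cHet against control 0 passed by limma. At an unadjusted limma p under 0.05 there were 3 higher and 1 lower for cKO against control. There were 4 higher and 1 lower for cKO against cHet, and 1 higher and 1 lower for cHet against control. The gene that passed was Elovl6, which elongates palmitic acid towards the stearic acid and oleic acid of myelin lipids. It was at 105, 95.4 and 106 normalized TPM in cKO, 175, 231 and 206 in cHet and 176, 176 and 155 in control nerves, so that no cKO nerve reached another genotype. Its log2 fold change was -0.72 against control (95% CI -0.98 to -0.46, limma adjusted p = 0.0229) and -0.99 against cHet (-1.25 to -0.72, adjusted p = 0.00696). The call against cHet held without each of the 9 libraries in turn (adjusted p 0.00992 to 0.0427). That against control was lost under 12 of 23 alternatives, without cKO mouse 1, 2 or 3, cHet mouse 3 or control mouse 1 or 2 among them, with adjusted p from 0.0213 to 0.0943 over the omissions of single nerves. Elovl1, which makes the very long acyl chains that Cers2 uses, was at 496 to 679 in cKO, 524 to 713 in cHet and 526 to 697 in control nerves, with overlapping groups.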

How the data were processed

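RNA of 9 sciatic nerves was sequenced by the authors with TruSeq libraries. The deposited values are a signal in normalized TPM made by the authors, per gene and library. Tools named in the submitters' processing notes are kallisto 0.44.0 and sleuth 0.30.0, with the build GRCm38. The strandedness, annotation release and scaling behind the table are not stated in the sources used here. Library sums ran from 934932 to 1158094, so that the values are not plain TPM. TPM keep no depth, and the counting error of a value is unknown. All columns were used.

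Symbols were matched by Ensembl identifier for 35471 genes. One model over 9 libraries was fitted to log2(value + 0.5), which understates changes of low genes, with limma 3.58.1 in R 4.3.3 (eBayes with trend) for genes with a mean of at least 1, adjusted by Benjamini-Hochberg over all 15014 genes (threshold 0.05). The fit was tested on simulated data. Every adjusted p in the text is from it. Gene positions are from GENCODE, promoters from RefSeq.

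The members, lists and tests were chosen with earlier results of these data known. By rule, per-library values are given for members past the threshold, for members with cKO and control apart by 0.5 or more on the log2 scale without overlap, and for the core of galactolipid synthesis and breakdown; of further pathway genes, those past the threshold. St8sia1, B4galt5, St8sia3, Sgpp2, Elovl1, Asah1 and Sgpp1 were singled out after their values were seen. The 23 alternatives cover pseudocounts, filters, scalings, covariates and left-out libraries.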

Additional observations from a re-analysis of the deposited data

How the results depend on the processing

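No paired analysis was possible because the labels give mouse identifiers, with no replicate numbers shared between genotypes and no litter for any mouse. The paper states that age-matched mice of each genotype were grouped in sets, by litter or by litters born close together. Which mice form a set is not given, so the fit takes no account of the sets. All alternatives were chosen with earlier results known. For cKO against control the 1 member called became 0 with rescaling to 1 common sum, with scaling by median of ratios, with only the 2 groups fitted, with sex as a covariate, and without the 3 nerves whose genotype field differs from the title or those rich in markers of neurons, muscle or adipocytes. Leaving out single nerves gave 0 to 1, and the 1 was then Cers4 or Sphk1. Under quantile normalization the 1 was Sphk1. For cKO against cHet the 2 members became 1 with no filter (St3gal5), median of ratios scaling (Sgpp1, higher), only the 2 groups fitted or without adipocyte-high nerves (Sphk1, higher), 3 with quantile normalization (Cers4 and Ugt8a lower, Sphk1 higher), 4 with a minimum mean of 5 or the same sum, and 0 without the nerves with differing labels or those high in neuron or muscle markers. With sex as a covariate the 2 were Ugt8a and Sphk1. Leaving out single nerves gave 0 to 4. The pathway gene called against control, Elovl6, gave a count of 0 with no filter, with only the 2 groups fitted, without differing labels and without neuron-, muscle- or adipocyte-high nerves, and 0 to 1 leaving out single nerves. Against cHet its count of 1 became 0 without differing labels or neuron- or muscle-high nerves. The causes were not tested. Omitting nerves with differing labels or high in muscle markers leaves 1 cKO nerve, omitting neuron-high nerves leaves 2 per genotype, and omitting adipocyte-high nerves leaves 1 control nerve, assumed to vary like the rest.

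The log2 fold change of Fa2h for cKO against control turned to 0.12 without adipocyte-high nerves (-0.26 to 0.12 leaving out single nerves) and that of Ormdl3 to 0.164 (-0.314 to 0.027). St3gal5 for cHet against control was 0.00, and 0.072 with the same sum, 0.006 with median of ratios scaling, 0.040 with quantile normalization, 0.008 without differing labels, 0.040 without muscle-high and 0.046 without adipocyte-high nerves (-0.027 to 0.040 leaving out single nerves). Rescaling to the same sum moved the median of all genes for cKO against cHet to -0.12, from 0.02, and the members' median to -0.15, from -0.01. The split of all genes called was then 90 higher and 202 lower, where it was 140 and 116. Calls over all genes, 235 against control and 256 against cHet, were 89 and 96 with no filter, 50 and 178 with 2 groups fitted, 15 and 15 without neuron-high nerves, 19 and 174 without adipocyte-high nerves, and 0 and 0 without muscle-high nerves or differing labels. Leaving out single nerves gave 49 to 176 and 55 to 270.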
